A study of Mus musculus with 12 samples.

Results

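Transcript levels of 38 genes of the cell cycle and of DNA replication were followed in mouse CD4+ T cells on 12 arrays. The 38 genes are a list by name that runs from the D cyclins to the proliferation marker Mki67. Of the 38, 37 were among the 18193 genes that have a probe set annotated to them alone. Where a gene had several probe sets, the brightest over the 12 arrays stood for it. Ccnb1, the gene of cyclin B1, is not analysed here. The 37 genes comprised 24 that act in G1 or S phase and 13 that act in mitosis.

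A dividing T cell passes from G1 through DNA replication in S phase to mitosis. D cyclins with Cdk4 and Cdk6, and then E cyclins with Cdk2, drive the release of E2F factors, which switch on replication genes, while inhibitors such as p21 and p27 hold these kinases back. The genes of mitosis are switched on later, in G2, and their transcripts are hardly made in resting T cells, so they are widely read as a mark of dividing cells. T cells placed in lymphocyte-deficient hosts are known to divide.

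All cells came from female mice on the BALB/c background, with 3 arrays in each of 4 groups. SKG mice carry a point mutation in Zap70, the kinase behind the T cell receptor. SKG mice and BALB mice, the control, were 40 weeks old, and the labels of their cells name PMA and ionomycin as the stimulus, chemicals that bypass the receptor. They came from lymph node after a sort of CD4+ cells without FR4, a folate receptor rich on regulatory T cells, except for BALB replicate 1, which is labelled as CD4+ cells of spleen and lymph node with no FR4 sort. The IFNg KO transfer group held spleen CD4+ cells of RAG2 KO hosts that had received T cells lacking IFN-γ. The IL-6 KO transfer group held the same from hosts lacking both RAG2 and IL-6, given T cells lacking IL-6. Both were taken 7 days after transfer, with an age of 7 weeks on the labels and no stimulation named there. RAG2 KO hosts have no B or T cells of their own but keep their other blood cells, and no transfer of unmodified T cells is among the groups. The design text sets SKG against BALB and IFNg KO against IL-6 KO transfer. The series title names Th17 cells, helper T cells that make IL-17.

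Values are log2(intensity + 16) after quantile normalization of the arrays compared, so a fold change is on that scale and understates the change of dim genes. Median deposited intensities ran from 15.7 to 27.6 over the 12 arrays. Ifng read 8.86 to 9.77 on the IFNg KO transfer arrays and 12.32 to 13.57 on all others, while Il6 was not lower in the IL-6 KO transfer group (5.66 to 8.02) than in BALB (4.66 to 5.08). T cell markers summed to an intensity of 7560 to 12200 on every array. Replicate 3 of each transfer group stood apart, with a 3′ to 5′ Gapdh intensity ratio, a control for RNA integrity, of 9.33 (IL-6 KO) and 7.99 (IFNg KO) against 2.42 to 3.28 on the other 10 arrays. Neutrophil markers summed to 1070 on IL-6 KO replicate 3 and to 21.8 to 234 elsewhere. Results are therefore also given on replicates 1 and 2 alone. The labels do not say whether replicates were separate animals, so a p-value reflects only how these arrays vary, possibly for technical reasons.

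The mitotic genes shared a promoter feature that the list did not use. A CCAAT box together with a cell cycle genes homology region, searched as TTTGAA or TTCGAA, is a known arrangement of promoters active in G2 and mitosis. RefSeq promoter windows (GRCm38.p6, 300 bases across the gene start) were at hand for 30 of the 37 genes, in 35 windows. Of the 10 windows of mitotic genes, 9 (90.0%) held both motifs on either strand, against 3 of 25 windows (12%) of the other members and 7.52% of all 32851 windows. CCAAT was in 37.4% and the homology region in 19.2% of all windows, each share including the windows with both. The E2F-like motif GCGGGAA was in 0 of the 10 mitotic windows, in 7 of the 25 others (28%) and in 4.6% of all. Survivin's gene Birc5 was the mitotic gene with neither CCAAT nor the homology region. No window was listed for Ccnd1, Ccnd2, Ccne2, Mcm4, Ccna2, Aurkb or Tpx2. The first 4 windows below belong to mitotic genes with both motifs and the last to Cdk6, the G1 kinase with the largest rise in SKG cells, which held none of those searched. Capitals mark CCAAT, its reverse ATTGG, and the homology region on either strand, where neighbouring motifs can run together. A match describes these letters and is not a tested binding site.
Mki67, chr7:135716330-135716629, minus strand: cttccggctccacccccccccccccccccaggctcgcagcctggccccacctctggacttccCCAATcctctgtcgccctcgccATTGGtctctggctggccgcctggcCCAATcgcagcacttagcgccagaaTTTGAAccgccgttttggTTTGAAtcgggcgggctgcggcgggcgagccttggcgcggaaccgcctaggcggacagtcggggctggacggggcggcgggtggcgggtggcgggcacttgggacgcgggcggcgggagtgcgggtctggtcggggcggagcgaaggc
Top2a, chr11:99024140-99024439, minus strand: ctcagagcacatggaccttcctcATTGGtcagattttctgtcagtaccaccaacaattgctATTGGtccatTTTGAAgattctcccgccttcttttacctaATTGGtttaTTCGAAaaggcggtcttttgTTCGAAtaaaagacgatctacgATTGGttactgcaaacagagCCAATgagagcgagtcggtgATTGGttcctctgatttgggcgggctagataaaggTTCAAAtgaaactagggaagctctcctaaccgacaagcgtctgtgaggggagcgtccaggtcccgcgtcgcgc
Cdk1, chr10:69352863-69353162, minus strand: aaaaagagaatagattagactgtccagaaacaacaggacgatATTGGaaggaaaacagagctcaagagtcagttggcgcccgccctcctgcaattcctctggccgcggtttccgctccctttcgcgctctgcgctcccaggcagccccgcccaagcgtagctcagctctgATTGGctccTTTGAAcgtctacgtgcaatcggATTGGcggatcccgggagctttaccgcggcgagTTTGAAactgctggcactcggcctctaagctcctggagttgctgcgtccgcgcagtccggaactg
Ccnb2, chr9:70421505-70421804, minus strand: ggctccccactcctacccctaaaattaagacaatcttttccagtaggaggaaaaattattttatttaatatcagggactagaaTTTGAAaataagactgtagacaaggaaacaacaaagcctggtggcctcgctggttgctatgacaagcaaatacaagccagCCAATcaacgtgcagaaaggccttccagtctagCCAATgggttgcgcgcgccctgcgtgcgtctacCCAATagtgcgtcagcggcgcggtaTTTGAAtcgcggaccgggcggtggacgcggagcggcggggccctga
Cdk6, chr5:3343643-3343942, plus strand: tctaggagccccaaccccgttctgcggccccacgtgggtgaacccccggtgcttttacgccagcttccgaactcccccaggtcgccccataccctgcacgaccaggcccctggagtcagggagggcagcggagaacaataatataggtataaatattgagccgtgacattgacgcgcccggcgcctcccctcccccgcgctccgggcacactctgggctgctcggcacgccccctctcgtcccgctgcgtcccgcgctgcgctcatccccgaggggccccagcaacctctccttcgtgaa

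In SKG cells, the G1 kinase gene Cdk6 and the mitotic genes Mki67, Ccna2 and Birc5 were higher than in BALB cells, and 8 genes of G1 and S phase were lower. A further mitotic gene, Bub1, was called higher from a BALB mean below the floor of the filter on low values. The lower genes included Cdkn1a and Cdkn1b, 2 of the 3 inhibitor genes among the members, as well as cyclins D2, D3 and E2, E2f1, Mcm4 and Rrm2. Of 37 members, 36 passed the filter on low values and were tested. By limma with Benjamini-Hochberg adjustment over 12073 genes, 5 members were higher and 8 lower, and 23 did not pass at 0.05. Over all genes tested 27.5% were called, 15.8% as higher and 11.8% as lower. Among the members these shares were 36.1%, 13.9% and 22.2%, so the share called higher was near that of all genes. A change in the share of dividing cells and a change in these transcripts per cell, in either direction, cannot be told apart in bulk RNA.

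**Figure D1:**
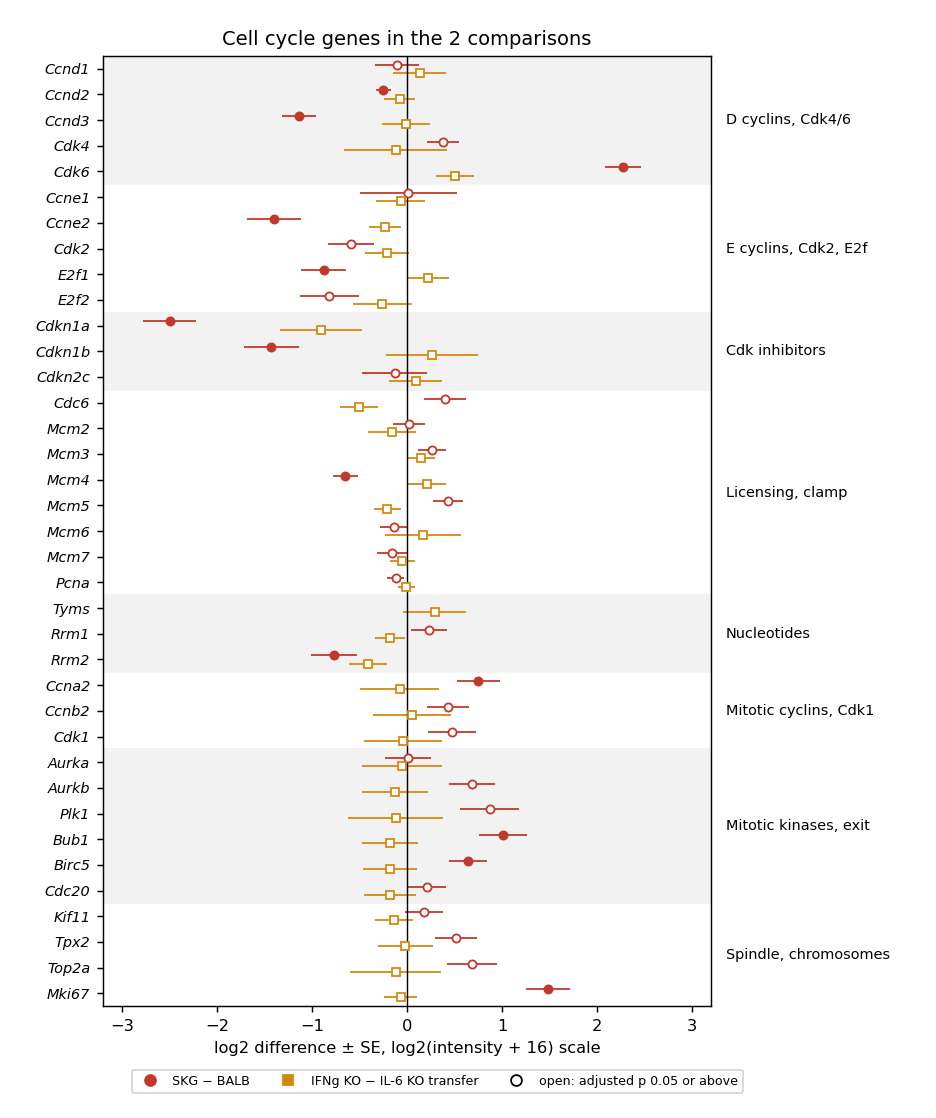
Log2 difference ± SE for each of the 37 genes, by role, in SKG minus BALB (red circles) and in IFNg KO minus IL-6 KO transfer (orange squares), 3 arrays per group; filled symbols have an adjusted p under 0.05 (limma). Red symbols reach from -2.50 (Cdkn1a) to 2.27 (Cdk6), mitotic genes lie at or right of 0 in red, and no orange symbol is filled; Tyms was not tested in SKG minus BALB.

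Among the D cyclins and their kinases, Cdk6 stood out. It read 9.89, 10.04 and 9.27 on BALB replicates 1 to 3 and 11.98, 12.12 and 11.90 on SKG replicates 1 to 3, a 4.81-fold higher level (log2 difference 2.27 ± 0.19 SE, n = 3 per group, limma adjusted p = 0.00016). Every SKG array lay above every BALB array. All 3 Cdk6 probe sets were higher, by 0.88 to 2.27. Cdk4, the other kinase gene of this set, differed by 0.38 ± 0.17 and did not pass (limma adjusted p = 0.14).

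The D cyclins, the regulatory subunits of these kinases, were level or lower. Ccnd3 read 8.03, 7.88 and 8.22 in BALB and 6.82, 6.76 and 7.14 in SKG (log2 difference -1.14 ± 0.18, n = 3 per group, limma adjusted p = 0.0024). All SKG arrays were below all BALB arrays for this brightest probe set, but its 3 probe sets ran from -1.14 to -0.14 and their median did not pass (limma adjusted p = 0.63). Ccnd2 read 13.37, 13.32 and 13.26 in BALB and 12.98, 13.01 and 13.19 in SKG, a fall of 1.19-fold (log2 difference -0.25 ± 0.08, n = 3 per group, limma adjusted p = 0.048). Its groups did not overlap, yet its 7 probe sets ran from -0.73 to 0.23. Ccnd1 differed by -0.11 ± 0.23 (limma adjusted p = 0.77).

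The inhibitors of the cyclin-dependent kinases held the largest fall. Cdkn1a, which encodes p21, read 12.18, 11.90 and 12.39 in BALB and 9.69, 9.03 and 10.27 in SKG, a 5.64-fold lower level (log2 difference -2.50 ± 0.28, n = 3 per group, limma adjusted p = 0.00051). Both of its probe sets gave -2.50. Cdkn1b, which encodes p27, read 7.44, 7.54 and 8.43 in BALB and 6.42, 6.01 and 6.70 in SKG (log2 difference -1.43 ± 0.29, n = 3 per group, limma adjusted p = 0.0075). For both genes the SKG arrays lay wholly below the BALB arrays. Cdkn2c, which encodes p18, an inhibitor of Cdk4 and Cdk6, read 7.15, 7.03 and 7.14 in BALB and 7.32, 7.53 and 6.08 in SKG. Its groups overlapped through SKG replicate 3 (limma adjusted p = 0.82).

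Of the E cyclins, Cdk2 and the E2F factors, which carry the cell into S phase, 2 of 5 fell. Ccne2 read 7.09, 7.33 and 7.25 in BALB and 6.21, 6.11 and 5.14 in SKG (log2 difference -1.40 ± 0.28, n = 3 per group, limma adjusted p = 0.0066). E2f1 read 6.70, 6.44 and 7.24 in BALB and 5.80, 5.78 and 6.16 in SKG (log2 difference -0.88 ± 0.24, n = 3 per group, limma adjusted p = 0.025). Neither gene's groups overlapped. The other 3, Ccne1, Cdk2 and E2f2, differed by 0.01, -0.59 and -0.82 and did not pass, though E2f2 passed as lower with the replicate number as a block (limma adjusted p = 0.045), a fit that called 34.6% of all genes.

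The replication genes moved little. Mcm4, a subunit of the replicative helicase, was the only licensing or clamp gene of 8 to pass; it read 10.97, 10.93 and 11.03 in BALB and 10.44, 10.39 and 10.15 in SKG (log2 difference -0.65 ± 0.13, n = 3 per group, limma adjusted p = 0.0056). Mcm5, another subunit, went the other way, from 9.74, 9.60 and 10.08 to 10.23, 10.16 and 10.32. Its groups did not overlap, and its difference of 0.43 ± 0.16 did not pass (limma adjusted p = 0.071) but did with the replicate block (0.027), on replicates 1 and 2 alone (0.0022) and without BALB replicate 3 (0.018). The clamp gene Pcna read 13.08, 13.11 and 13.19 in BALB and 12.92, 12.95 and 13.14 in SKG (log2 difference -0.12 ± 0.09, limma adjusted p = 0.33), and its groups overlapped. The other 5, the helicase genes Mcm2, Mcm3, Mcm6 and Mcm7 and the loading factor Cdc6, differed by -0.16 to 0.40.

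Among the genes of nucleotide synthesis, Rrm2, the small subunit of ribonucleotide reductase, read 8.13, 7.98 and 8.29 in BALB and 7.49, 7.77 and 6.84 in SKG. This fall of 0.77 on the log2 scale (SE 0.24, n = 3 per group, limma adjusted p = 0.044) left the groups apart. Rrm1, the large subunit, differed by 0.23 ± 0.19 (limma adjusted p = 0.43). Tyms, thymidylate synthase, read 4.10 to 4.97 on the 6 arrays, under the floor of 4.74 on average, and was not tested.

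On their brightest probe sets all 13 mitotic genes had a positive difference, with a median of 0.64 against 0.06 for all genes, of which 54.7% were positive. The 3 Kif11 probe sets ran from -0.20 to 0.18, with the brightest alone positive. The 2 above the floor ran from 0.06 to 0.68 for Top2a and from 0.16 to 0.68 for Aurkb. For 8 of the 13 the SKG arrays lay wholly above the BALB arrays (61.5%, against 24.9% of all genes tested), and 4 of the 13 were called. The 8 include Bub1 and Aurkb and the 4 include Bub1, whose BALB means lay below the filter's floor. Mki67, which encodes the proliferation antigen Ki-67, read 6.66, 6.68 and 7.15 in BALB and 8.27, 8.71 and 7.95 in SKG, a 2.8-fold higher level (log2 difference 1.48 ± 0.23, n = 3 per group, limma adjusted p = 0.0024). Bub1, a spindle checkpoint kinase, read 5.11, 4.47 and 4.44 in BALB and 5.76, 5.78 and 5.50 in SKG (log2 difference 1.01 ± 0.25, n = 3 per group, limma adjusted p = 0.016). The Bub1 mean in BALB (4.67) and the mean of the kinase gene Aurkb there (4.72) lay below the floor of 4.74, so these genes entered the test through their SKG arrays.

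Ccna2, the cyclin of S phase and early mitosis, read 6.01, 6.24 and 5.86 in BALB and 6.92, 7.11 and 6.33 in SKG (log2 difference 0.75 ± 0.23, n = 3 per group, limma adjusted p = 0.042). Birc5, which encodes survivin of the chromosomal passenger complex, read 5.54, 5.61 and 5.57 in BALB and 6.50, 6.16 and 5.97 in SKG (log2 difference 0.64 ± 0.20, n = 3 per group, limma adjusted p = 0.041). Both genes had SKG arrays wholly above BALB, with SKG replicate 3 the lowest of its group. Top2a, the topoisomerase that untangles sister chromosomes, read 7.54, 7.50 and 7.77 in BALB and 8.28, 8.82 and 7.74 in SKG (log2 difference 0.68 ± 0.26, limma adjusted p = 0.085). Cdk1, the kinase that starts mitosis, read 6.38, 6.16 and 6.06 in BALB and 6.67, 7.15 and 6.19 in SKG (log2 difference 0.47 ± 0.25, limma adjusted p = 0.20). In both, SKG replicate 3 fell within the BALB range while SKG replicates 1 and 2 lay above it. The other 7 mitotic genes differed by 0.01 (the spindle kinase gene Aurka) to 0.87 (Plk1, a kinase of mitotic entry), and Plk1 passed with the replicate block (limma adjusted p = 0.022).

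On replicates 1 and 2 alone, 13 members were higher and 10 lower of 36 (23.8% and 18.3% of all genes tested), and 10 of the 13 mitotic genes were higher, among them Top2a (1.03, limma adjusted p = 0.00096), Plk1 (1.16, 0.00074) and Cdk1 (0.63, 0.03). Without SKG replicate 3, 9 members were higher in place of 5. The calls of Cdk6, Ccne2, Cdkn1a, Cdkn1b, Mcm4 and Mki67 held under every one of 17 alternatives. Leaving out 1 array ended the others except Ccnd3. Ccnd2, Ccna2 and Birc5 lost their call without any 1 of BALB replicates 1 to 3 or SKG replicates 1 and 2, with adjusted p up to 0.17, 0.15 and 0.15. Rrm2 lost it without any BALB replicate or without SKG replicate 1 or 3 (up to 0.11), E2f1 without BALB replicate 1 or 3 or SKG replicate 1 or 2 (up to 0.086), and Bub1 without BALB replicate 2 or SKG replicate 1 or 2 (up to 0.065). The 3′ to 5′ actin ratio was 2.95 to 3.98 in BALB and 1.93 to 2.63 in SKG, and the summed intensity of both CD8 T cell markers, neither at 0 on all arrays, was 217 to 286 in BALB and 25.3 to 143 in SKG. The markers went opposite ways: Cd8b1 averaged 7.94 in BALB and 5.44 in SKG and was called lower by limma, while Cd8a averaged 4.73 and 5.54 and was not called. The part of the actin ratio or of CD8 cells in these differences was not tested.

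**Figure D2:**
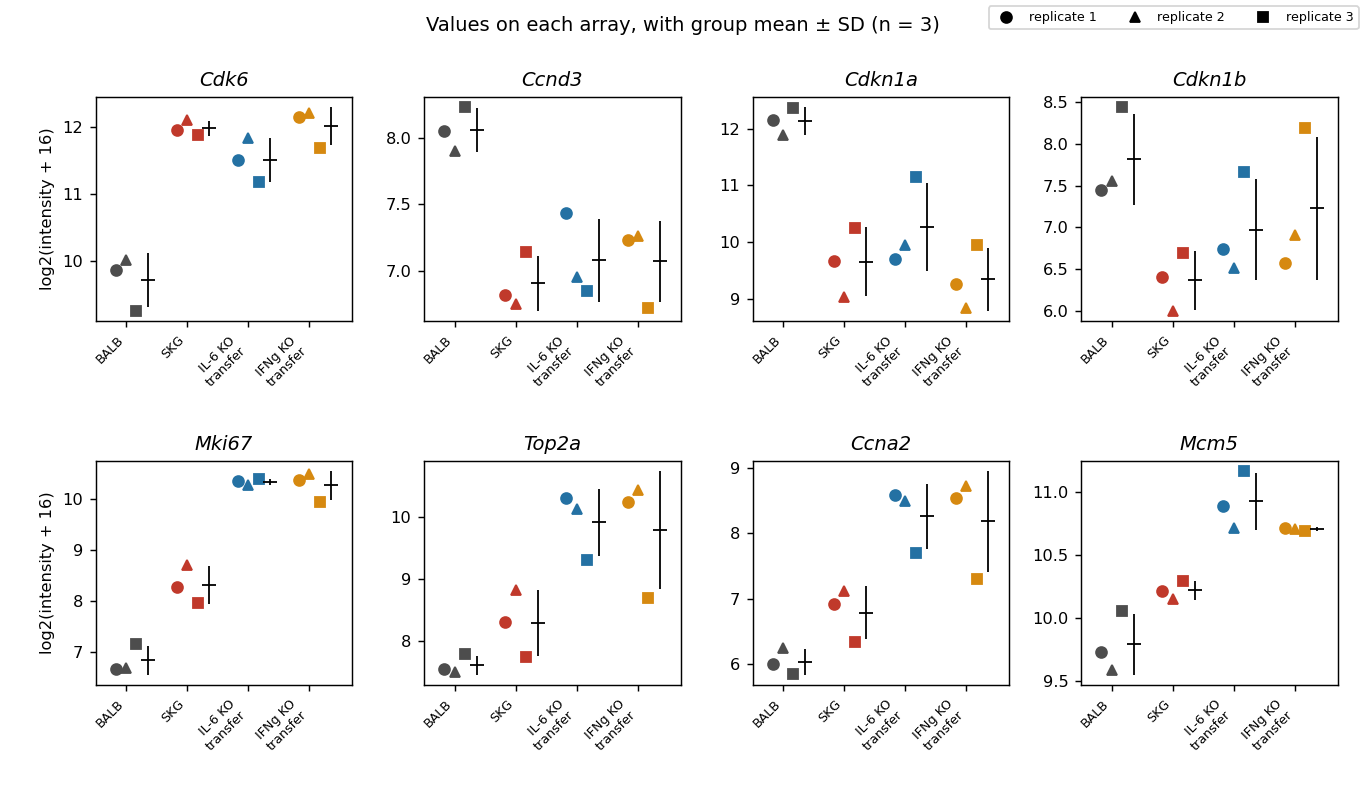
Log2(intensity + 16) of 8 genes on each of the 12 arrays, normalized together, by group, with symbols for replicate number and the group mean ± SD (n = 3) in black. Cdk6 is low and Cdkn1a, Cdkn1b and Ccnd3 are high on BALB arrays, while Mki67 steps up from BALB (mean 6.83) to SKG (8.33) to both transfers (10.35 and 10.28).

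Between the transfer groups, IFNg KO against IL-6 KO, limma called 0 of 37 members, and 0.114% of 12262 genes (0.0652% higher and 0.0489% lower). Cdk6 and Cdc6 were the 2 members with an unadjusted p below 0.05, a level that 4.34% of all genes reached. The median difference of the members was -0.08, against 0.00 for all genes, and 3 members (Ccne2, Cdc6 and Rrm2) had all IFNg KO arrays below all IL-6 KO arrays, against 4.53% of all genes, while 0 members had them all above (5.41% of all genes). Mki67 read 10.34, 10.26 and 10.39 in the IL-6 KO transfer and 10.38, 10.48 and 9.93 in the IFNg KO transfer (log2 difference -0.07 ± 0.17, limma adjusted p = 1). Its groups overlapped, as did those of every mitotic gene, which differed by -0.18 to 0.05. The spread was wide: Top2a read 10.28, 10.10 and 9.29 against 10.22, 10.41 and 8.70, with replicate 3 lowest in each group (difference -0.12 ± 0.48).

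With the replicate number as a block, 1 member passed as higher and 1 as lower, where 1.79% of all genes were called. Cdk6 read 11.49, 11.81 and 11.16 in the IL-6 KO transfer and 12.11, 12.18 and 11.67 in the IFNg KO transfer (log2 difference 0.50 ± 0.20, limma adjusted p = 1 without the block and 0.014 with it). Each IFNg KO array exceeded the IL-6 KO array of its number, though the groups overlapped. Cdkn1a read 9.68, 9.92 and 11.13 in the IL-6 KO transfer and 9.24, 8.84 and 9.92 in the IFNg KO transfer (log2 difference -0.91 ± 0.43, limma adjusted p = 1 without and 0.019 with the block). Both also passed on replicates 1 and 2 alone (0.018 and 0.016), where 2.14% of genes were called higher and 1.97% lower.

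Cdkn1b followed the replicate number. It read 6.73, 6.51 and 7.67 against 6.57, 6.91 and 8.21, highest on replicate 3 in each. Ccnd3 read 7.44, 6.95 and 6.84 against 7.24, 7.26 and 6.71, and Pcna 12.63, 12.62 and 12.68 against 12.61, 12.53 and 12.76. Neither differed beyond its spread (-0.01 ± 0.25 and -0.01 ± 0.09).

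An interaction term over all 12 arrays tested how far the 2 comparisons differed. By limma, 2 of 37 members had a larger value in SKG minus BALB than in IFNg KO minus IL-6 KO (Cdk6, 1.75 ± 0.30, adjusted p = 0.0052, and Mki67, 1.57 ± 0.31, adjusted p = 0.010). A further 2 had a smaller value (Ccnd3, -1.15 ± 0.31, adjusted p = 0.039, and Mcm4, -0.86 ± 0.24, adjusted p = 0.042). Over all genes 8.2% were called, 4.86% as larger and 3.34% as smaller, so the members' share of 10.8% was near it. The calls of Cdk6 and Mki67 held under all 22 alternatives. Ccnd3 lost its call without BALB replicate 1, 2 or 3, SKG replicate 1 or 2, IL-6 KO replicate 2, or IFNg KO replicate 1 or 2 (adjusted p up to 0.1), and Mcm4 lost it without most single arrays (up to 0.11). The call of Ccnd3 also ended with the median over its probe sets (limma adjusted p = 0.62), no normalization (0.22), median scaling (0.14) or no filter (0.065). With the replicate block 8 members were higher and 6 lower, where 25.6% of all genes were called; these added Cdc6, Mcm5, Ccna2, Plk1, Bub1 and Birc5 as higher and Ccne2, E2f1, Cdkn1a and Cdkn1b as lower. On replicates 1 and 2 alone 11 were higher and 7 lower of 36 (18.1% and 12.9% of all genes).

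Across the 4 groups the mitotic genes were lowest in BALB, between in SKG and highest in both transfers. The BALB mean was the lowest of the 4 for all 13 mitotic genes, against 42.8% of all genes. For 7 of the 13 (53.8%) every SKG array lay above every BALB array and every transfer array above every SKG array, an order found for 4.31% of all genes. Both counts include Bub1 and Aurkb, whose BALB means (4.66 and 4.71) lay below the floor of 4.73. These genes passed the filter through the other groups, where they are higher. Among the 24 genes of G1 and S phase, Mcm5 alone had that order. On the arrays normalized together, Mki67 read 6.66, 6.68 and 7.16 in BALB, 8.28, 8.72 and 7.97 in SKG, 10.36, 10.28 and 10.40 in the IL-6 KO transfer and 10.39, 10.49 and 9.95 in the IFNg KO transfer. The transfer groups, neighbours in the order, did not differ beyond their spread.

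**Figure D3:**
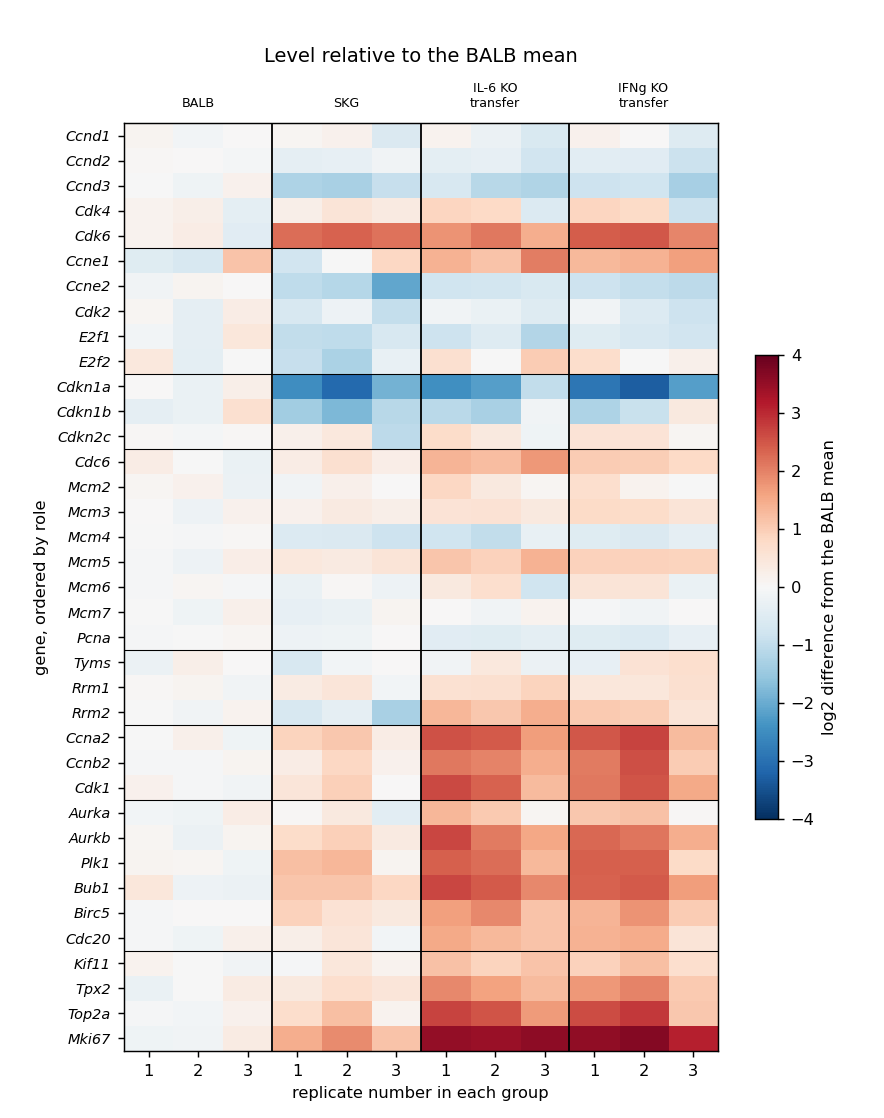
Level of each of the 37 genes on each of the 12 arrays as the log2 difference from its BALB mean (red higher, blue lower), with genes ordered by role between horizontal lines and arrays by group and replicate. The mitotic genes at the bottom are red in both transfer groups, paler on replicate 3 for most, while Cdkn1a is blue in SKG and both transfers.

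Both transfer groups together were set against SKG and BALB together. These sets differ at once in age, tissue, labelled stimulation, host and genotype, so what sets the difference cannot be told apart. By limma 21 of 37 members were higher and 3 lower in the transfer groups, against 24.8% and 13.7% of 12176 genes, and the members' median was 0.78 against 0.11 for all genes. All 13 mitotic genes were called higher, from 0.78 (Aurka) to 2.74 (Mki67, ± 0.16 SE, adjusted p = 2.9e-07, 6.66-fold), on their brightest probe sets. Their probe sets above the floor were all positive but differed in size. They ran from 0.11 to 1.33 for Tpx2, from 0.36 to 1.75 for Bub1 and from 0.45 to 0.93 for Kif11. Cdk1 read 6.37, 6.15 and 6.06 in BALB, 6.67, 7.15 and 6.19 in SKG, 8.84, 8.55 and 7.45 in the IL-6 KO transfer and 8.29, 8.71 and 7.69 in the IFNg KO transfer (log2 difference 1.83 ± 0.26, limma adjusted p = 0.00015). Every transfer array lay above every other array. For Top2a (1.89 ± 0.30, adjusted p = 0.00033) the lowest transfer array, IFNg KO replicate 3 at 8.69, lay below SKG replicate 2 at 8.82. In all, 15 members had the transfer arrays wholly above the others (8.88% of all genes) and 1, Pcna, wholly below (4% of all genes).

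The genes of S phase rose in part. Rrm2 (1.46 ± 0.17, limma adjusted p = 4e-05), Ccne1 (1.49 ± 0.33, 0.0034), Cdc6 (0.99 ± 0.15, 0.00023), Mcm5 (0.81 ± 0.11, 0.00011), E2f2 (0.83 ± 0.24, 0.014), Rrm1 (0.50 ± 0.13, 0.0071) and Mcm3 (0.47 ± 0.10, 0.0033) were higher in the transfers. Rrm2, lower in SKG than in BALB, thus had its lowest levels in SKG (7.50, 7.78 and 6.84) and its highest in the transfers (8.68 to 9.59). Mcm5, Mcm3 and Rrm1 rested on their brightest probe set, since with the median over probe sets their adjusted p was 0.83, 0.73 and 0.63, and Rrm1 had the opposite sign (-0.18). Pcna fell, from 12.90 to 13.18 on the SKG and BALB arrays to 12.55 to 12.79 on the transfer arrays (-0.39 ± 0.06, limma adjusted p = 0.00037). Mcm2, Mcm4, Mcm6, Mcm7, Cdk2 and Tyms did not pass. On replicates 1 and 2 alone, 25 members were higher and 4 lower of 36, where 4474 and 2499 of 12147 genes were. There Mcm6 (0.57, limma adjusted p = 6.9e-05) and Mcm2 (0.43, 0.0099) passed as higher and Mcm4 (-0.41, 4.8e-05) as lower. Mcm7 and Cdk2 did not pass there, and Tyms was not tested.

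Cdk6 and Cdkn1a were among the G1 regulators that set BALB apart from the other 3 groups. Cdk6 read 9.87, 10.02 and 9.26 in BALB and 11.17 to 12.20 on the other 9 arrays, and Cdkn1a 12.16, 11.88 and 12.37 in BALB and 8.83 to 11.15 elsewhere. For neither did BALB overlap any other group. The same held for Ccnd2, Ccnd3, Ccne2 and E2f1, each higher in BALB. Such gaps were common: all 6 transfer arrays lay below all BALB arrays for 15.4% of all genes and above them for 24.4%. The SKG arrays lay wholly below the BALB arrays for 18.4% of all genes and wholly above for 24.9%. The share of all genes with BALB apart from all 3 other groups was not counted. Ccnd3 read 7.90 to 8.23 in BALB and 6.72 to 7.43 elsewhere, and Ccne2 7.09 to 7.33 and 5.14 to 6.63. Over both sets, Cdk6 was higher in the transfers by 0.91 ± 0.15 (limma adjusted p = 0.00051) and Cdkn1a lower (-1.09 ± 0.28, adjusted p = 0.0077), as was Ccnd2 (-0.40 ± 0.09, adjusted p = 0.0047). Cdkn1b (0.01 ± 0.30), Cdkn2c (0.42 ± 0.24), Cdk4 (0.13 ± 0.31), Ccnd1 (-0.12 ± 0.19), Ccnd3 (-0.41 ± 0.15, adjusted p = 0.052), Ccne2 and E2f1 did not pass. On replicates 1 and 2 alone, Cdk4 (0.52, limma adjusted p = 1e-05) and Cdkn2c (0.41, 0.0052) passed as higher. Of the 24 calls, 18 held under all 22 alternatives. Aurka lost its call without any 1 of BALB replicates 1 and 2, SKG replicates 1 and 3, IL-6 KO replicates 1 and 2 or IFNg KO replicates 1 and 2 (adjusted p up to 0.078).

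Dendritic cell markers summed to 103 to 114 in the IL-6 KO and 87.7 to 105 in the IFNg KO transfer, against 59.7 to 73.9 in BALB and 42.4 to 60.2 in SKG. The higher sum came with Itgax, which averaged 6.54 and 6.22 in the transfers against 4.96 in BALB and 5.08 in SKG. Cd209a was also higher, at 4.91 in the IL-6 KO and 5.07 in the IFNg KO transfer against 4.66 in both BALB and SKG. Those 4.66 lay below the floor of 4.73, so Cd209a entered the test through the transfer arrays. Flt3, Xcr1 and Siglech had means of 4.28 to 4.63 in the transfers and 4.36 to 4.91 in BALB and SKG. NK cell markers summed to 82.2 to 350 and 187 to 239 in the IL-6 KO and IFNg KO transfers, against 35.3 to 85.3 in BALB and 53.5 to 88 in SKG. The NK markers went opposite ways. Klrc1 averaged 7.74 and 7.81 in the IL-6 KO and IFNg KO transfers, against 5.94 in BALB and 6.24 in SKG. It was called higher in the transfers by limma (log2 difference 1.69). Ncr1 averaged 4.15 and 4.38 in the transfers, against 4.80 in BALB and 4.63 in SKG, and was not tested. Neutrophil markers summed to 21.8 to 1070 and 61.1 to 234 in the transfers and 26.3 to 45.2 in BALB and SKG, and 2 of the 3 tested were called higher (median 1.45). For 0 of the 3 did the transfer arrays lie wholly above the others. S100a9 averaged 4.21 in BALB and 4.06 in SKG, below the floor of 4.73, so it entered the test through the transfer arrays. On replicates 1 and 2 alone, 2 neutrophil markers were tested and 1 was called higher. The transfers were called higher for 1 of 3 erythroid, 1 of 5 macrophage and 3 of 6 T cell markers, and lower for 2 of 3 B cell, 1 of 3 plasma cell and 1 of 2 CD8 markers. That CD8 marker, Cd8b1, averaged 5.50 in the IL-6 KO and 5.64 in the IFNg KO transfer, 5.44 in SKG and 7.94 in BALB. The transfers were thus lower than BALB but not than SKG for Cd8b1. Over all genes tested, 24.8% were called higher and 13.7% lower. The B cell markers Ms4a1 and Cr2 averaged 4.23 to 4.59 in the transfers, below the floor, and entered the test through BALB and SKG. B cell markers ran from 40.5 to 57.3 and from 46.0 to 75.6 in the transfers and from 44.4 to 330 and 164 to 192 in BALB and SKG. None of the markers read in these lists was at 0 on all arrays. The part of other cell types in the mitotic levels was not tested.

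Within groups the mitotic genes moved together with replicate number. Replicate 3 was the lowest of its group for 13 of 13 mitotic genes in the IFNg KO transfer, for 11 in the IL-6 KO transfer, for 11 in SKG and for 5 in BALB, against 45.9%, 47.7%, 41.1% and 42.6% of all genes. The median of replicate 3 minus the mean of replicates 1 and 2 was -0.81, -0.63, -0.48 and 0.16 in these groups, with all genes at -0.04, -0.06, -0.01 and -0.01. Cdkn1a was higher on replicate 3 by 0.90, 1.34, 0.90 and 0.35, and Cdkn1b by 1.45, 1.03, 0.49 and 0.94. The Gapdh ratio set apart replicate 3 of the transfers but not that of SKG (2.9 against 2.57 and 3.03). The actin ratio was highest on replicate 3 in every group, at 3.81 in the IFNg KO transfer, 5.13 in the IL-6 KO transfer, 2.63 in SKG and 3.98 in BALB, against 1.67 and 1.61, 1.66 and 1.6, 2.12 and 1.93, and 3.04 and 2.95 on replicates 1 and 2. The part of RNA integrity in these levels was not tested.

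**Figure D4:**
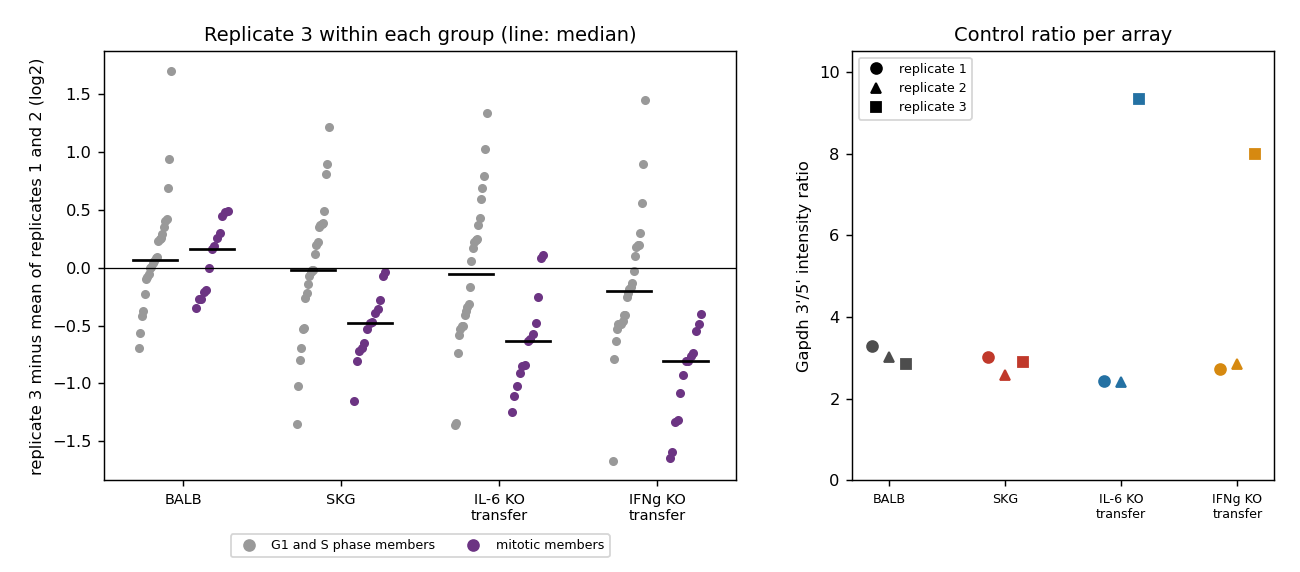
Left, the log2 value of replicate 3 minus the mean of replicates 1 and 2 in each group, 1 point per gene, for 24 genes of G1 and S phase (grey) and 13 mitotic genes (purple), with the median as a line. Right, the 3′ to 5′ Gapdh intensity ratio of each array, which is 9.33 and 7.99 on replicate 3 of the transfers and at most 3.28 elsewhere.

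Other genes of the cycle were taken from 3 further lists. Of 38 further G2 and mitosis genes tested in SKG against BALB, 4 were called higher and 3 lower by limma (18.4% in all, against 27.5% of all genes), with a median of 0.33. Smc2, a condensin subunit (1.30 ± 0.24, adjusted p = 0.0046), Anln, a cytokinesis factor (0.95 ± 0.23, 0.016), Hmmr and Kif22 were higher. Pttg1, which encodes securin (-0.94 ± 0.13, adjusted p = 0.0014), the kinesin gene Kif23 (-1.43 ± 0.33, 0.013) and Ckap2 were lower. In the transfers against SKG and BALB, 36 of 39 (92.3%, against 24.8% of all genes) were higher and 0 lower by limma, and the 3 that did not pass, Foxm1, Ckap2 and Cks1b, were also positive. The 36 include Cdc25c (0.91 ± 0.21, limma adjusted p = 0.0042), whose mean over the SKG and BALB arrays lay below the filter's floor. Cdc25c thus entered this test through the transfer arrays, where it is higher. Hmmr, a spindle factor, had the smallest p (2.16 ± 0.17, adjusted p = 3.5e-06).

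Of 29 further S phase genes, limma called 4 higher and 5 lower in SKG cells (13.8% and 17.2%, near the 15.8% and 11.8% of all genes). The higher were Rfc4, a subunit of the clamp loader (1.0 ± 0.16, adjusted p = 0.0026), Gins2 of the replicative helicase (0.88 ± 0.18, 0.0078), and the DNA polymerase genes Pola1 and Pold1. The lower were the licensing factor Cdt1 (-0.74 ± 0.15, adjusted p = 0.0073), Chaf1b of the chromatin assembly factor (-1.01 ± 0.21, 0.0082), Rfc3, Fen1 and Lig1. In the transfers 15 were higher and 5 lower (51.7% and 17.2%, against 24.8% and 13.7% of all genes), led by Mcm10 (1.87 ± 0.14, adjusted p = 1.9e-06).

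The 24 further G1 regulators and brakes held 5 higher and 8 lower genes in SKG, again by limma (20.8% and 33.3%, against 15.8% and 11.8% of all genes). Rbl2, which encodes the pocket protein p130 (1.86 ± 0.20, adjusted p = 0.00046), and the E2F partner Tfdp1 (0.95 ± 0.15, 0.0024) rose, with Cdkn2a, Cdkn2b and Ccng1. Foxo3, a transcription factor of quiescence (-1.71 ± 0.16, adjusted p = 0.00025), and the stress gene Gadd45a (-1.88 ± 0.22, 0.00062) fell. The inhibitor gene Cdkn1c, which encodes p57, fell by 2.83 on the log2 scale (SE 0.51, adjusted p = 0.0043), and Cdkn2d, Ccng2, Tob1, Foxo1 and Gadd45b also fell. Inhibitor genes thus went both ways, Cdkn1a, Cdkn1b, Cdkn1c and Cdkn2d down and Cdkn2a and Cdkn2b up. Between the transfer groups 0 genes of the 3 lists were called by limma. An unadjusted p below 0.05 was reached by 2 of them, the G1 regulators E2f8 and Gadd45a, and by 4.34% of all genes.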

How the data were processed

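The deposited values are linear intensities of 45101 probe sets on each array; how the authors made and scaled them is not given in the sources used here, and RNA was labelled with biotin by in vitro transcription per the labels' protocols. In R 4.3.3, 64 control probe sets were left out, 16 was added, log2 taken and the arrays of each fit quantile normalized. Of the probe sets, 34958 were annotated to 1 gene, 932 to several, and 9160 were not in the annotation. Symbols were updated by gene ID for 34754. A gene was tested where its mean was at or above the 40th percentile over probe sets (4.74 in SKG against BALB, 4.72 between the transfers, 4.73 over 12 arrays). limma 3.58.1 (lmFit, eBayes with an intensity trend, two-sided) was run on all genes, with Benjamini-Hochberg adjustment over all of them and a threshold of 0.05, and was tested on simulated data. The number of arrays, 3 per group, limits the precision.

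The 38 genes and the further lists were chosen with earlier results of these data known. Values on each array are given for members called in either comparison and for a set of core cycle genes, other members by their range, and from the further lists up to 4 genes with the smallest p, plus names completing a short count, chosen after their values were seen.

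Deviations from the group mean of arrays with the same replicate number correlated at 0.13, 0.20 and 0.33 in the SKG comparison. In the transfer comparison the values were 0.46, 0.45 and 0.70. All exceeded 0.1, so the numbers were treated as pairs there, but only in the fit with the replicate block. The main fits had no block. Arrays numbered 1 and 2 correlated across numbers about as strongly (0.17 and 0.17, and 0.44 and 0.41), and replicate 3 alone stood apart, at -0.26 to -0.21 and -0.57 to -0.53 with the others. Replicates of a group correlated at 0.964 to 0.987, with at most 1.21% identical values. Alternatives were an added constant of 1 or 64, no filter or a 60th percentile filter, no normalization, median scaling, the median over probe sets, no trend, all 12 arrays in 1 fit, the replicate block and leaving out each array. A fit on replicates 1 and 2 alone was added after the data were seen.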

Additional observations from a re-analysis of the deposited data

Results flagged for a closer look

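For 4 members the difference between the 2 comparisons was itself called by limma's interaction test over 12 arrays (adjusted p under 0.05), as for 8.2% of all genes. Cdk6 differed by 1.75 on the log2 scale (2.27 in SKG minus BALB and 0.50 in IFNg KO minus IL-6 KO, each in its own fit). Mki67 differed by 1.57 (1.48 and -0.07). Ccnd3 differed by -1.15 (-1.14 and -0.01) on its brightest probe set, and did not pass with the median over its probe sets (limma adjusted p = 0.62). Mcm4 differed by -0.86 (-0.65 and 0.21).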

How the results depend on the processing

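In SKG against BALB, the 5 higher members became 3 with no filter, no normalization or all 12 arrays in 1 fit, and 13 on replicates 1 and 2 alone, and the 8 lower became 5 with no filter or no normalization. Leaving out 1 array gave 2 to 9 higher and 5 to 8 lower. Between the transfers 0 members became 1 higher and 1 lower with the replicate block and on replicates 1 and 2, and stayed at 0 to 0 when any 1 array was left out. For the difference between comparisons, the 2 higher became 8 with the replicate block and 11 on replicates 1 and 2. The 2 lower became 0 with no filter, no normalization or median scaling, 1 with no trend, 6 with the block and 7 on replicates 1 and 2. Leaving out 1 array gave 2 to 3 higher and 0 to 4 lower. In the transfers against SKG and BALB, the 3 lower members became 1 with no normalization, and leaving out 1 array gave 20 to 23 higher and 3 to 4 lower. On replicates 1 and 2 the 21 higher became 25 and the 3 lower became 4. The sign of Rrm1 there turned with the median of probe sets (-0.18, adjusted p = 0.63). The cause of these changes was not tested. The replicate block added Ccnd3 as lower (0.041) and Mcm2 as higher (0.048) there, where numbers cross comparisons and were not treated as pairs. Over all genes, the 3324 calls in SKG against BALB became 1960 with no normalization and 5067 on replicates 1 and 2, and 1999 to 3906 without 1 array. The 14 between the transfers became 9 with the median of probe sets, 30 with all 12 arrays, 219 with the block, 505 on replicates 1 and 2, and 2 to 26 without 1 array. The 999 of the difference became 438 with no normalization, 3119 with the block, 3772 on replicates 1 and 2, and 508 to 1501 without 1 array. Genes near the floor, such as Tyms, Bub1 and Aurkb in BALB, are limited by signal over background.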

Other observations

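Ccne1, the gene of cyclin E1, differed from the mitotic genes in its relation to replicate number. Its replicate 3 exceeded the mean of replicates 1 and 2 by 1.70 in BALB, 1.22 in SKG, 0.79 in the IL-6 KO transfer and 0.30 in the IFNg KO transfer. Over the 12 arrays it read 6.69, 6.56 and 8.32 in BALB and 6.41, 7.17 and 8.01 in SKG, so the spread within each of these groups was wider than the difference between them (0.01 ± 0.51).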
